A study of Mus musculus with 6 samples.

Results

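The nuclear-encoded subunits of oxidative phosphorylation were followed in whole skin of 3 control mice and 3 JunBΔep mice by RNA sequencing. Members were chosen by gene symbol: Nduf followed by a, b, c, s or v and a digit, the 4 Sdh genes, and symbols that start with Uqcr, with Cox and a digit from 4 to 8, or with Atp5. This took 84 of the 23951 genes in the table. By the complex their proteins belong to, 35 are of complex I, 4 of complex II, 8 of complex III, 18 of complex IV and 15 of complex V, and the other 4 (Ndufa4l2, Cox7a2l, Atp5s and Atp5sl) are related proteins that share such a symbol. Ndufa4 was counted with complex IV, where its protein is found. Subunits encoded by mitochondrial DNA, and nuclear ones under other symbols such as Cycs, fall outside the symbols used.

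The control mice carry the label JunB +/+ and the JunBΔep mice the label JunB dep. All 6 were of the C57Bl/6 strain, with an age of 6 to 7 months in the labels and 6 months in the paper. The JunBΔep skin was lesional by the paper's account, so genotype and the state of inflamed lesional skin cannot be told apart in this comparison. JunBΔep mice have Junb deleted in cells that express keratin 5, which are basal keratinocytes and their descendants, so whole skin also holds cells that keep the gene. Mice of both sexes were used in the study. The replicate numbers 0, 1 and 2 come from the labels and are used here to name the mice. Whether they also pair the mice is not known, and p-values measure the spread between these mice alone.

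The tests, two-sided, were made with limma on log2(FPKM + 0.5), where FPKM is fragments per kilobase of transcript scaled to library size, over 17021 genes whose mean reached 0.1 FPKM. A gene is called at an adjusted p below 0.05, and fold changes on this scale understate the change of low genes. The FPKM of a mouse sum to 481078 to 630363, and the number of reads behind them is unknown. The library labelled JunBΔep 0 held Junb at 129.6 FPKM, above the 56.9 to 72.4 FPKM of the controls, whereas the other JunBΔep libraries held 42.8 and 28.0 FPKM. That library also held mucosal epithelium markers at a summed 3797 FPKM, where the other mice had 1.40 FPKM or less, and control 0 held liver markers at 1693 FPKM, where the others had 29.6 FPKM or less. Directions below follow the labels, and values without these libraries are given where the results turn on them.

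Oxidative phosphorylation passes electrons from NADH through complex I, or from succinate through complex II, to complex III and then to complex IV, which reduces oxygen. The proton gradient built on the way drives complex V, the ATP synthase. Some subunits of complex IV come in isoforms from separate genes. Cox6a2, Cox7a1 and Cox8b are the isoforms of striated muscle, and Cox6a1, Cox7a2 and Cox8a are their counterparts in most other tissues. Tissues rich in mitochondria, such as skeletal muscle, hold much more of all 5 complexes than epidermis does, and mouse skin lies on a thin sheet of skeletal muscle, the panniculus carnosus.

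The promoters of 2 isoform pairs are shown because the members of each pair had opposite or unlike levels in the comparison. Each window runs from 250 bases before to 50 bases after the RefSeq gene start, in the sense of the gene, on GRCm38.p6. Capitals mark CG dinucleotides. The windows are chr7:30183921-30184220 (+) for Cox7a1, chr9:79759804-79760103 (-) for Cox7a2, chr7:140900397-140900696 (-) for Cox8b and chr19:7217567-7217866 (-) for Cox8a.
Cox7a1: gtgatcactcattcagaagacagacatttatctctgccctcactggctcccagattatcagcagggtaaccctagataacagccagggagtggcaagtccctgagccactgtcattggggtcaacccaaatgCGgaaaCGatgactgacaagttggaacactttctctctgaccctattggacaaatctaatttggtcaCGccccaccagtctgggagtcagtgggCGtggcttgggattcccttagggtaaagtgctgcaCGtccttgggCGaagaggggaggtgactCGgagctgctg
Cox7a2: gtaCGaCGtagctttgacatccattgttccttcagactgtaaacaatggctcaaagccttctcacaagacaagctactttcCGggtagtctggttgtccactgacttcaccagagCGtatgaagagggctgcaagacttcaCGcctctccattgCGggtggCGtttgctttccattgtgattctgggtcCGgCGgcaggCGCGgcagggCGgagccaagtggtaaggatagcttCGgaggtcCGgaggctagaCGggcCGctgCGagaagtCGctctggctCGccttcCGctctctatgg
Cox8b: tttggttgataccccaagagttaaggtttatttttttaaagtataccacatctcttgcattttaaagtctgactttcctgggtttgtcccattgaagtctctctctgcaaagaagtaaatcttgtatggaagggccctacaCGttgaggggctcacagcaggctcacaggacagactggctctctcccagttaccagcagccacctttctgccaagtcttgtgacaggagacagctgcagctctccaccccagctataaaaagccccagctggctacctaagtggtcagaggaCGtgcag
Cox8a: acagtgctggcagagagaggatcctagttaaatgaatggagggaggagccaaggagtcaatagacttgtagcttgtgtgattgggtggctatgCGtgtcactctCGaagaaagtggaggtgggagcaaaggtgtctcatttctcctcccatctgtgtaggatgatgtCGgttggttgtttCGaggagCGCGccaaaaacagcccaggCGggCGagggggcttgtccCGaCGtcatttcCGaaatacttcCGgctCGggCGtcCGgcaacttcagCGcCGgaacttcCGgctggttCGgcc

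In both pairs shown the muscle isoform had the window with fewer CG dinucleotides, 7 for Cox7a1 and 2 for Cox8b. Of the 66 members with a window Cox8b had the fewest, Cox7b followed with 5 and then Cox7a1, and Cox6a2 was not among the 66. Cox7a2 had 20 and Cox8a 19, close to the member median of 19, whereas the median over all 32851 windows of the RefSeq table was 7. MyoD-type E-box letters (CAGCTG, on either strand) stood in the Cox8b window, the first starting 19 bases before the gene start and the last 17 bases after it. Across the 71 windows of these 66 members, NRF1 letters (GCGCATGCG) were present in 11.3% against 1.75% of all windows. YY1 letters (AAGATGGC) were present in 12.7% against 2.75%, and GABPA letters (ACCGGAAG) in 8.45% against 2.30%. ERR letters (TCAAGGTCA) were present in 2.82% of member windows against 0.423%. E-box letters were present in 8.45% of member windows against 16.3% of all, and MEF2 letters (TAAAAATA) in 0% against 2.72%. Both strands were searched for each motif, and a match describes letters only.

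The striated muscle isoforms of complex IV were the subunits with the clear difference: Cox6a2 and Cox7a1 fell in the JunBΔep mice, and Cox8b stood lower in all 3 without passing the test. Their general counterparts had higher means in JunBΔep than in control skin, none past the test. Cox6a2 (mm9 chr7:135348950-135349880, 3 exons) was at 412, 619 and 381 FPKM in control mice 0, 1 and 2. In the libraries labelled JunBΔep 0, 1 and 2 it was at 55.5, 31.4 and 69.4 FPKM. No JunBΔep value came near a control value, and the means were 471 ± 129.5 and 52.1 ± 19.2 FPKM (SD, n = 3 and 3), a log2 fold change of -3.20 ± 0.35 (SE, limma adjusted p = 0.0204), or 9.21-fold lower on the tested scale. Cox7a1 (mm9 chr7:30969190-30971047, 4 exons) was at 194, 311 and 196 FPKM in the controls and at 24.8, 22.1 and 34.1 FPKM in JunBΔep mice. Again the groups stood well apart, with a log2 fold change of -3.08 ± 0.27 (SE, limma adjusted p = 0.0179), or 8.46-fold lower. Cox8b (mm9 chr7:148084842-148086345, 2 exons) was at 291, 513 and 268 FPKM in the controls and at 54.0, 25.2 and 90.1 FPKM in JunBΔep mice. The groups did not overlap, but the JunBΔep mice were spread over a wider range than for the other muscle isoforms, and the log2 fold change of -2.77 ± 0.51 (SE) had an adjusted p of 0.0835 from limma.

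**Figure D1:**
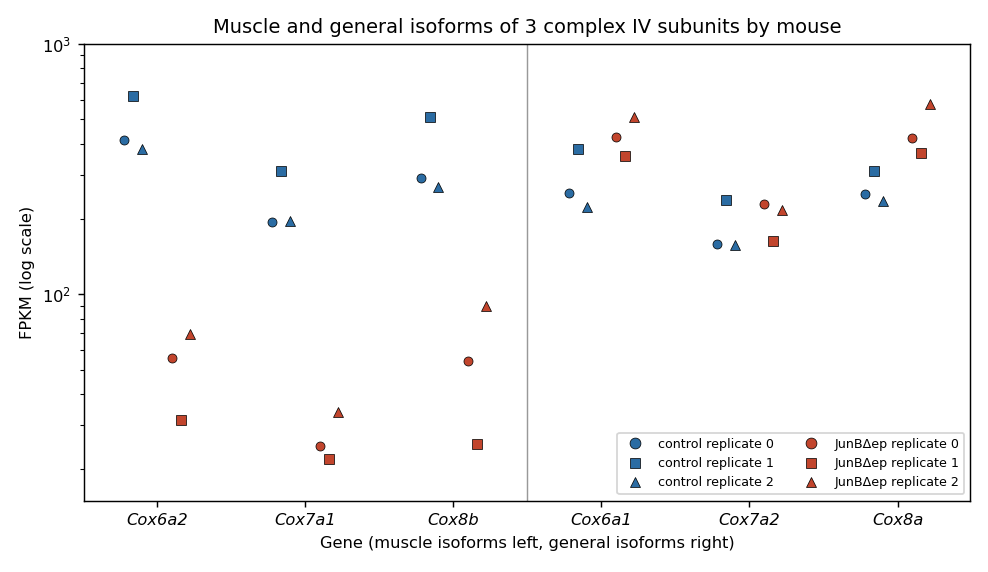
FPKM on a log axis of the 3 muscle isoforms (left) and their 3 general counterparts (right), with 1 point per mouse, blue for control and red for JunBΔep. The muscle isoforms sit at 194 to 619 FPKM in the controls and at 22.1 to 90.1 FPKM in JunBΔep mice, and Cox8a is the only one of the 6 in which every JunBΔep mouse is above every control mouse.

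Among the general isoforms, Cox8a was at 252, 310.2 and 236 FPKM in the controls and at 422, 366 and 576 FPKM in JunBΔep mice. All 3 JunBΔep mice were above all controls, and the log2 fold change was 0.75 ± 0.24 (SE, limma adjusted p = 0.443). Cox6a1 was at 253, 379 and 223 FPKM in the controls and at 427, 358 and 509.8 FPKM in JunBΔep mice, where JunBΔep 1 was below control 1. Its log2 fold change was 0.62 (limma adjusted p = 0.689). Cox7a2 was at 159.7, 237 and 158 FPKM in the controls and at 230.2, 163 and 217 FPKM in JunBΔep mice, ranges that largely coincide, with a log2 fold change of 0.15 (limma adjusted p = 0.835), which ran from 0.049 without control 2 to 0.34 without control 1.

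FPKM is per length, so the share of the muscle isoform in the summed FPKM of its pair can be read within each library, independent of library scaling. Cox6a2 made up 61.9%, 62.0% and 63.1% of the Cox6a pair in control mice and 11.5%, 8.07% and 12.0% in JunBΔep mice. The control mice lay within a very narrow range and the JunBΔep mice far below it. Cox7a1 made up 54.8%, 56.8% and 55.4% of its pair in control mice and 9.72%, 11.9% and 13.6% in JunBΔep mice. Cox8b made up 53.6%, 62.3% and 53.1% in control mice and 11.3%, 6.44% and 13.5% in JunBΔep mice. In all 3 pairs the muscle isoform was therefore the larger part in every control mouse and the smaller part in every JunBΔep mouse. The log2 ratio of muscle to general isoform differed between JunBΔep and control mice by -3.82 for Cox6a, -3.23 for Cox7a and -3.52 for Cox8, each with an exact two-sided permutation p of 0.1 (n = 3 and 3), the smallest that 3 mice against 3 can give and also 0.1 after adjustment over the pairs. Leaving out any 1 mouse kept these differences between -3.94 and -3.09. Annotated transcripts of the isoforms shared no identical run longer than 12, 12 and 10 nucleotides in the Cox6a, Cox7a and Cox8 pairs.

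The summed FPKM of a pair differed much less than its composition. The Cox6a pair summed to 665, 998 and 604 FPKM in the controls and to 482, 389 and 579 FPKM in JunBΔep mice, and the Cox7a pair to 354, 549 and 355 against 255, 186 and 251 FPKM. Both pairs were lower in every JunBΔep mouse than in any control mouse. The Cox8 pair summed to 543, 823 and 504 FPKM in the controls and to 476, 392 and 666 FPKM in JunBΔep mice, where the groups overlapped.

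**Figure D2:**
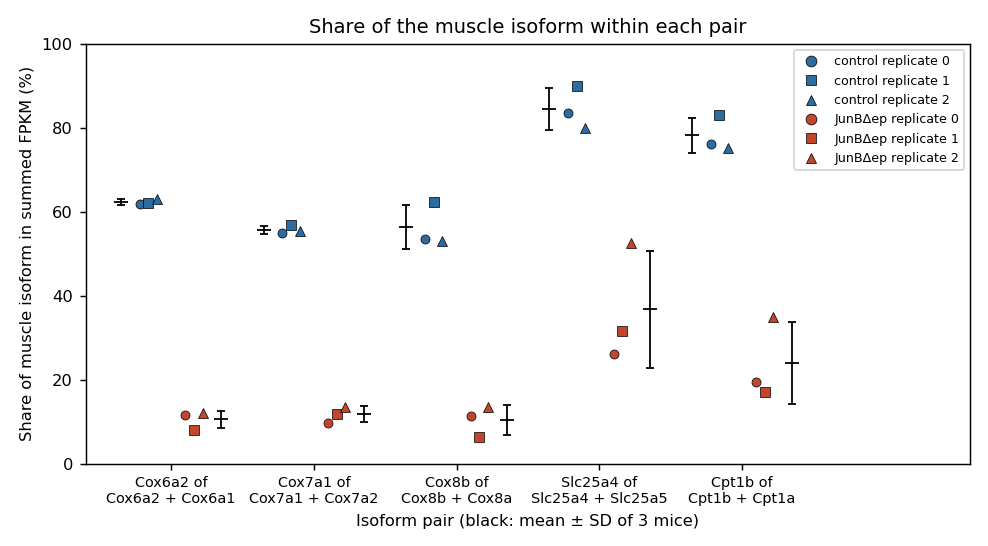
Percent of the summed FPKM of each isoform pair that came from the muscle isoform, with 1 point per mouse and black bars for the mean ± SD of 3 mice. For the 3 complex IV pairs the control mice lie at 53.1% to 63.1% and the JunBΔep mice at 6.44% to 13.6%. The Slc25a4 and Cpt1b pairs are of a carrier and an enzyme outside the 5 complexes.

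Skeletal muscle markers moved with these isoforms. Among 16 tested markers were Acta1, the actin of skeletal muscle fibres, and Mb, myoglobin. Of the 16, 12 were called lower, and in 16 of 16 every JunBΔep mouse was below every control mouse. Over all genes tested these shares were 1.38% and 9.16%. These markers were chosen with earlier results of these data known. Their summed level was 24884 to 34256 FPKM in control mice and 2325 to 5609 FPKM in JunBΔep mice, their median log2 fold change was -3.22, and none was listed at 0 in any mouse. Acta1, the most abundant, was at 5542, 6866 and 5711 FPKM in the controls and at 631, 568 and 1283 FPKM in JunBΔep mice. The part of these markers in the differences of Cox6a2, Cox7a1 and Cox8b was not tested, and in whole skin fewer muscle cells and less of an RNA per muscle cell cannot be told apart. Among markers of other tissues, 0 of 5 heart markers were called (summed level 12.7 to 33.4 FPKM in control and 13.6 to 21.3 FPKM in JunBΔep mice, Myh6 at 0.0159 FPKM or less in every mouse). Of 5 smooth muscle markers 0 were called (110.4 to 193 FPKM in control and 67.0 to 211 FPKM in JunBΔep mice), and of 5 brown fat markers 0 were called (46.1 to 77.1 FPKM in control and 62.9 to 88.4 FPKM in JunBΔep mice). Ucp1, which defines brown fat, was at 0.0643 to 0.112 FPKM in control and at 0.123 to 1.73 FPKM in JunBΔep mice. In the keratinocyte list 0 of 6 genes were called (summed level 6608 to 10607 FPKM in control and 6158 to 11854 FPKM in JunBΔep mice), and Krt14 was listed at 0 in the library labelled JunBΔep 0 alone, where Krt15 was at 80.7 FPKM against 947 FPKM or more in the other mice. At an unadjusted p below 0.05 these lists held 0 heart, 1 brown fat, 0 smooth muscle and 0 keratinocyte genes. The brown fat gene was Zic1, lower at 0.0842 to 0.121 FPKM in JunBΔep mice against 0.398 to 0.522 FPKM in the controls. Over all genes tested, 6.13% were lower and 1.43% higher at that p, and 1.38% were called lower. With 5 or 6 genes tested per list, 0 calls do not show these tissues to be level.

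The calls depended on which mice were kept and on the block used. Without control 0, 1 or 2, or without JunBΔep 1, limma called 0 genes of the whole table (793, 1041, 1031 and 1090 genes at an unadjusted p below 0.05), and the smallest adjusted p of a subunit was 0.121, 0.119, 0.112 and 0.0666. Without the library labelled JunBΔep 0, Cox7a1 was called and Cox6a2 was not, and without JunBΔep 2 both were. With the number series of the sample names as a block, 0 genes were called (1523 at an unadjusted p below 0.05), and Cox6a2 and Cox7a1 each had a limma adjusted p of 0.0661. Over all 18 alternatives the log2 fold change stayed between -3.44 and -2.88 for Cox6a2, between -3.26 and -2.86 for Cox7a1 and between -3.19 and -2.28 for Cox8b.

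Of the 84 members, 82 had the mean needed for the test. The other two, the testis-type isoforms Cox7b2 and Cox8c, were at or near 0: Cox7b2 was listed at 0 in all 6 mice, and Cox8c was at 0.0444 FPKM or less. Cox6a2 and Cox7a1 were the 2 members called lower (2.44% of the members tested, against 1.38% of all genes tested), and 0 were called higher (0% of all genes). At an unadjusted p below 0.05, 19 members were lower (23.2%, against 6.13% of all genes) and 1 was higher, Cox8a (1.22%, against 1.43%). In 31 members all JunBΔep mice were below all control mice (37.8%, against 9.16%), and in 1 member, Cox8a again, they were all above (1.22%, against 5.62%). On the tested log2 scale the mean was lower in JunBΔep mice for 78 members (95.1%, against 46.6%), and the 4 others were Ndufa4, Cox7a2, Cox6a1 and Cox8a. In plain FPKM, Cox4i2 and Cox6b2 also had slightly higher means in JunBΔep mice (4.21 against 4.12 and 10.1 against 9.47 FPKM). Over the 82 members the median log2 fold change was -0.41, also without the 3 muscle isoforms, and over all genes tested it was 0.03. So most subunits stood slightly lower, and apart from the 2 muscle isoforms none of those differences passed the test over all genes.

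This small difference was unevenly spread over the mice. Against the control mean, the median member lay at -0.19, 0.42 and -0.22 on the log2 scale in control mice 0, 1 and 2 and at -0.38, -0.67 and -0.20 in JunBΔep mice 0, 1 and 2. JunBΔep 2 thus lay level with control 0 and control 2. Control 1 was the highest mouse in 75 of 82 members, and JunBΔep 1 was the lowest in 57 and JunBΔep 0 in 18. Without control 1 the median over members was -0.23 and 67 of 82 had a lower mean, without JunBΔep 1 it was -0.32, and without the library labelled JunBΔep 0 it was -0.44. Within the number series of the sample names, the median difference was -0.48 in the series with 1 JunBΔep and 2 control mice and -0.20 in the series with 2 JunBΔep mice and 1 control mouse. Control 1 also stood high in short transcripts generally: against the other controls, genes with transcripts of up to 1000 nucleotides had a median difference of 0.31 and those over 2000 nucleotides one of -0.10, while the members had 0.67 and 0.51. The part of transcript length in the subunit levels of control 1 was not tested. With each mouse centred on genes of like transcript length, the median fold change over members stayed at -0.41.

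**Figure D3:**
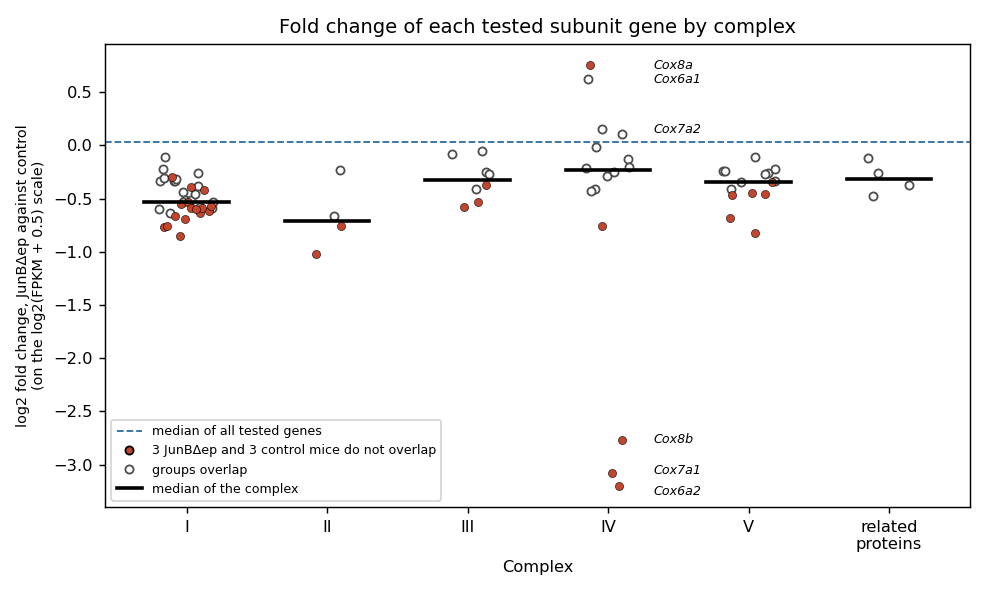
log2 fold change of each of the 82 tested members, JunBΔep against control on the log2(FPKM + 0.5) scale, by complex. Red points are genes whose 3 JunBΔep and 3 control mice do not overlap, bars are medians of a complex, and the dashed line is the median of all tested genes at 0.03. The 3 muscle isoforms lie at -2.77 to -3.20, apart from the other members, which lie between -1.02 and 0.75.

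Complex I, the NADH dehydrogenase, had a median log2 fold change of -0.53 over 35 tested subunits. All 35 had a lower mean in JunBΔep mice, 16 had groups that did not overlap, 11 had an unadjusted p below 0.05, and 0 were called. Over all genes tested, 46.6% had a lower mean, 9.16% had all JunBΔep mice below all controls and 6.13% were lower at an unadjusted p below 0.05. The range ran from Ndufs7, a core iron-sulfur subunit (-0.85), to Ndufa7, an accessory subunit (-0.11). Ndufs7 was at 162, 279 and 155 FPKM in the controls and at 86.1, 99.98 and 138 FPKM in JunBΔep mice, with all JunBΔep mice below the controls by a small margin. Ndufa7 was at 149, 239 and 134 FPKM in the controls and at 136, 148 and 191 FPKM in JunBΔep mice, which lie inside the control range. Ndufb9, the most abundant, was at 299, 438 and 279.8 FPKM against 221, 186 and 295 FPKM (log2 fold change -0.53, and -0.33 without control 1). By mouse the median of the complex was -0.57, -0.69 and -0.24 in JunBΔep 0, 1 and 2, against -0.20, 0.45 and -0.25 in control 0, 1 and 2. Without control 1 the median fold change of the complex was -0.31.

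Complex II, succinate dehydrogenase, also belongs to the citric acid cycle and had the lowest median of the 5 complexes, -0.71 over 4 subunits. Sdhb, the iron-sulfur subunit, was at 166, 272 and 189 FPKM in the controls and at 67.4, 114 and 131 FPKM in JunBΔep mice. The groups did not overlap, and the log2 fold change was -1.02 ± 0.32 (SE, limma adjusted p = 0.423). Without the library labelled JunBΔep 0 it was -0.74. Sdhc, a membrane anchor, was at 156, 202 and 159.8 FPKM in the controls and at 81.5, 93.4 and 136 FPKM in JunBΔep mice, again without overlap (log2 fold change -0.76). Sdha, the flavoprotein subunit, was at 139, 156 and 148 FPKM in the controls and at 76.7, 72.5 and 143 FPKM in JunBΔep mice, where JunBΔep 2 was level with the controls (-0.67). Sdhd, the other anchor, was at 105, 138 and 100.4 FPKM against 118, 67.8 and 111 FPKM, with overlapping groups (-0.24). Without control 1 the median of the complex was -0.63, and without the library labelled JunBΔep 0 it was -0.57.

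Complex III, which hands electrons to cytochrome c, had a median of -0.32 over 8 subunits, with all 8 means lower, 3 without overlap, 1 at an unadjusted p below 0.05 and 0 called, beside 9.16% of all genes without overlap in this direction and 6.13% lower at that p. Uqcrfs1, the Rieske iron-sulfur protein, was at 144, 191 and 151 FPKM in the controls and at 126, 80.9 and 121 FPKM in JunBΔep mice, below every control (log2 fold change -0.58, and -0.37 without JunBΔep 1). Uqcrh, the hinge protein and the most abundant of the complex, was at 388, 647 and 379.96 FPKM in the controls and at 476, 374 and 483 FPKM in JunBΔep mice. Its groups overlapped, and its log2 fold change was -0.05. Without control 1 the median of the complex was -0.13, and without JunBΔep 1 it was -0.18.

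Complex IV had a median of -0.23 over 16 tested subunits and of -0.21 without the 3 muscle isoforms. Of the 16, 4 were lower and 1 was higher at an unadjusted p below 0.05, beside 6.13% and 1.43% of all genes. Of the 13 without the muscle isoforms, only Cox5a had all JunBΔep mice below all controls, beside 9.16% of all genes. Cox5a is a structural subunit named here after its values were seen. It was at 335, 529 and 328 FPKM in the controls and at 234, 206 and 247 FPKM in JunBΔep mice (log2 fold change -0.76, limma adjusted p = 0.449). Cox4i1, the general isoform of subunit 4 and the most abundant member of the complex, was at 540.1, 885 and 494 FPKM in the controls and at 473, 457 and 697 FPKM in JunBΔep mice (-0.22). Its partner Cox4i2, an isoform best known from lung, was at 3.10, 5.90 and 3.34 FPKM against 1.45, 7.04 and 4.14 FPKM (-0.13). Both pairs of groups overlapped, so the subunit 4 isoforms did not share the pattern of the muscle isoforms. Cox6b2, known from testis, was at 8.10, 12.4 and 7.89 FPKM against 2.77, 18.0 and 9.53 FPKM (-0.21), and Cox6b1 was at 412, 642 and 394 FPKM against 537, 368 and 513 FPKM (-0.01). Cox7b was at 169, 244 and 172 FPKM against 226, 114 and 163 FPKM (-0.25, and from -0.49 without the library labelled JunBΔep 0 to -0.0024 without JunBΔep 1). Ndufa4 was at 471, 718 and 449 FPKM in the controls and at 1033, 356 and 514 FPKM in JunBΔep mice, where the library labelled JunBΔep 0 stood above all others (0.10, and -0.32 without that library). Its paralogue Ndufa4l2, a protein induced by low oxygen, was at 213, 153 and 90.5 FPKM against 160.3, 77.7 and 138 FPKM (-0.26). Without control 1 the median of the complex was -0.04, without control 2 it was -0.35, and without the library labelled JunBΔep 0 it was -0.37.

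Complex V, the ATP synthase, had a median of -0.34 over 15 subunits, with all 15 means lower, 6 without overlap, 1 at an unadjusted p below 0.05 and 0 called. Beside 6.13% of all genes, 1 of 15 at that p is close to the background, while all JunBΔep mice were below all controls in 9.16% of all genes. Atp5b, the catalytic beta subunit and the most abundant of all 84 members, was at 766, 835 and 824 FPKM in the controls and at 698, 557 and 657 FPKM in JunBΔep mice. The control mice were close together here, and every JunBΔep mouse lay below them (log2 fold change -0.35, limma adjusted p = 0.722). Subunit c, the proton-carrying ring, is made from 3 genes that encode the same mature protein. Atp5g1 was at 244, 364 and 245 FPKM in the controls and at 213, 141 and 131 FPKM in JunBΔep mice, without overlap (-0.82, limma adjusted p = 0.481). Atp5g2 was at 307, 419 and 312 FPKM against 293, 341 and 323 FPKM (-0.10), and Atp5g3 at 479.6, 711 and 482 FPKM against 563, 382 and 485 FPKM (-0.22, and from -0.35 without the library labelled JunBΔep 0 to -0.032 without control 1). Atp5g1 was thus the one of the 3 with separate groups, and a difference between the 3 genes was not tested. Annotated transcripts of Atp5g1 and Atp5g2 shared an identical run of 21 nucleotides. Without control 1 the median of the complex was -0.21. The 4 related proteins had a median of -0.31, with 0 calls, 0 at an unadjusted p below 0.05, and no gene whose groups stood apart.

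**Figure D4:**
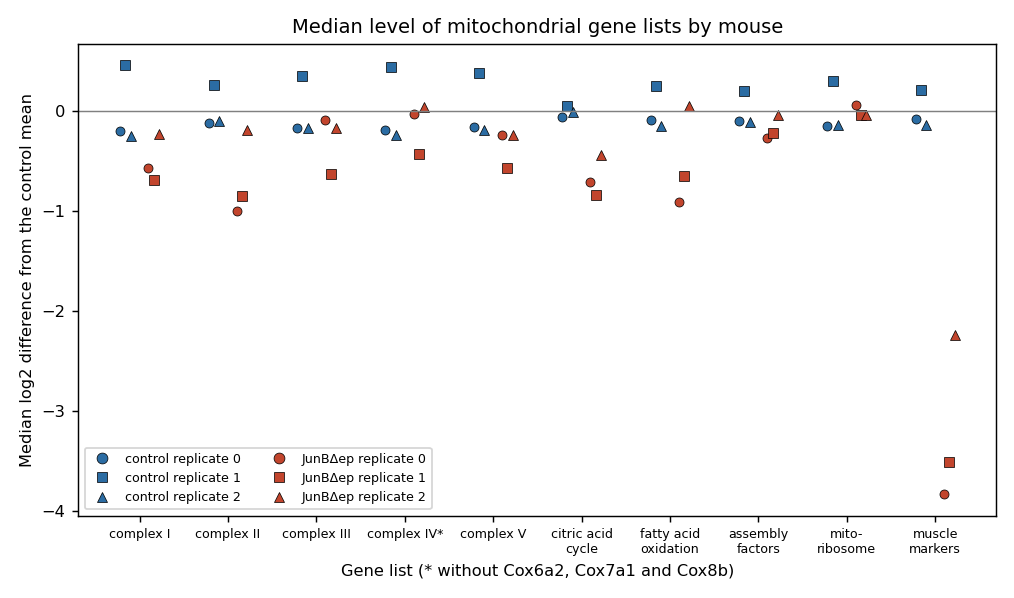
Median log2 difference from the control mean of each complex and of related gene lists, with 1 point per mouse. Control 1 is the highest mouse in every list shown, JunBΔep 2 lies between -0.24 and 0.04 in the 5 complexes as plotted, with complex IV shown without its 3 muscle isoforms, and the skeletal muscle markers lie at -2.24 to -3.83 in JunBΔep mice.

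The enzymes that feed the chain were read on lists of the same kind. Of 13 citric acid cycle genes, 0 were called, but 9 had an unadjusted p below 0.05, 9 had all JunBΔep mice below all controls and 13 had a lower mean, with a median log2 fold change of -0.64 (over all genes tested, 6.13%, 9.16% and 46.6% in that order). In this list the control medians were level (-0.06, 0.05 and -0.01), and those of JunBΔep 0, 1 and 2 were -0.72, -0.84 and -0.44. Mdh2, malate dehydrogenase and the most abundant of them, was at 299.7, 335 and 303 FPKM in the controls and at 263, 188 and 215 FPKM in JunBΔep mice (-0.51). Of 16 fatty acid oxidation genes 1 was called lower, against 1.38% of all genes tested, with a median of -0.49 over the list. Of these 16, 2 were lower and 1 was higher at an unadjusted p below 0.05, beside 6.13% and 1.43% of all genes. All JunBΔep mice were below all controls in 2 and above them in 1, beside 9.16% and 5.62%. By mouse the list lay at -0.91, -0.66 and 0.05 in JunBΔep 0, 1 and 2 and at -0.09, 0.24 and -0.15 in control 0, 1 and 2, so JunBΔep 2 was above controls 0 and 2. The called gene of this list was Cpt1b, the muscle isoform of the enzyme that commits fatty acids to the mitochondrion. It was at 46.0, 51.8 and 49.2 FPKM in the controls and at 4.91, 5.07 and 9.55 FPKM in JunBΔep mice (log2 fold change -2.88, limma adjusted p = 0.0179). Of 9 carriers and channels 2 were called lower, against 1.38% of all genes tested, with a median of -0.71 over the list. Slc25a4, the ADP/ATP carrier of muscle, was at 1019, 1646 and 1018 FPKM in the controls and at 201, 167 and 281 FPKM in JunBΔep mice (-2.50, limma adjusted p = 0.0263). Slc25a12, an aspartate and glutamate carrier of muscle and brain, was at 51.7, 45.2 and 53.1 FPKM against 23.1, 13.2 and 12.7 FPKM (-1.64, limma adjusted p = 0.0499). White fat markers, of which 0 of 6 were called, differed widely between mice (summed level 1279 to 3999 FPKM in control mice, 60.2, 2258 and 9945 FPKM in JunBΔep 0, 1 and 2), and their part in the fatty acid oxidation values was not tested.

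Outside the 5 complexes, muscle and general isoforms also differed in share, in a pair of ratios chosen after the values were seen. Slc25a4 made up 84.5% ± 5.07 (SD, n = 3) of its summed FPKM with Slc25a5, the general ADP/ATP carrier, in control mice and 36.8% ± 14.0 in JunBΔep mice. Cpt1b made up 78.2% ± 4.28 of its summed FPKM with Cpt1a, the liver isoform, in control mice and 23.9% ± 9.73 in JunBΔep mice. Cpt1a itself was higher in every JunBΔep mouse (17.7 to 24.6 FPKM) than in any control mouse (10.5 to 16.1 FPKM), with a log2 fold change of 0.60 (limma adjusted p = 0.582). The ranges did not overlap in either pair. Each log2 ratio had an exact two-sided permutation p of 0.1, the smallest that 3 mice against 3 can give. Because the pairs were chosen after their values were seen, neither result is a test of them.

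Lists for the making of the machinery had medians between -0.18 and 0.05. The 37 tested assembly factors had a median fold change of -0.18 (log2), with 0 calls and 4 at an unadjusted p below 0.05, all 4 lower (6.13% of all genes). Of these factors 29 had a lower mean (46.6% of all genes) and 9 had all JunBΔep mice below all controls (9.16% of all genes). The other way, 8 had a higher mean and 3 had all JunBΔep mice above all controls (5.62% of all genes). The 77 mitochondrial ribosome proteins had a median of 0.03 with 0 calls and 1 at an unadjusted p below 0.05, which was lower (6.13% of all genes). The 14 regulators of mitochondrial biogenesis had a median of 0.05 with 0 calls and 3 at an unadjusted p below 0.05, all 3 lower (6.13% of all genes). Among them Ppargc1a, the coactivator PGC-1 alpha, is high in muscle and is named here after its values were seen. It was at 1.22, 1.15 and 1.23 FPKM in the controls and at 0.218, 0.271 and 0.621 FPKM in JunBΔep mice (-0.996, limma adjusted p = 0.176). Of the 14 regulators 6 had a lower and 8 a higher mean. Ppargc1b and Pprc1 were among those with a higher mean (0.31 and 0.60, neither called). A list of 6 tested genes under other symbols, with further subunits, the electron carrier Cycs and the ATP synthase inhibitor Atpif1, had a median of -0.24 with 0 calls and 0 at an unadjusted p below 0.05.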

How the data were processed

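Whole skin of 3 control and 3 JunBΔep mice was profiled from poly(A) RNA with strand-specific libraries. Per the submitters' processing notes and the paper, the authors aligned reads to mm9 with TopHat2 2.0.10, Bowtie 1.0.0 and SAMtools 0.1.19, and deposited 1 table of FPKM per gene and mouse. Cufflinks is named among the tools, and the sources used here give neither its version nor its settings. FPKM depends on the transcript models and on the scaling of each library, and the authors' own test on read counts was not analysed here. No column was left unused.

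Genes whose mean over 6 mice reached 0.1 FPKM were fitted with limma 3.58.1 in R 4.3.3 on log2(FPKM + 0.5), with an intensity trend, no block, and Benjamini-Hochberg adjustment over all 17021 genes. The procedure was tested on simulated data. Isoform ratios were compared with an exact permutation test over mice. Depth is unknown, so no counting interval or floor is given. Groups came from the labels.

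Members and gene lists were chosen with earlier results of these data known, and medians and counts over lists are descriptions. Members named are tissue-specific isoforms with their partners, called members, the lowest, highest and most abundant of each complex, and the Sdh and Atp5g genes. By rule, those outside the members are Junb, called list genes and the most abundant gene of a list, and not every gene allowed is named. Cox5a and list genes such as Ppargc1a, Cpt1a, Slc25a5, Mb, Krt14, Krt15, Zic1, Ucp1 and Myh6 are named outside these rules. Some of them were picked after their values were seen. Positions of genes are from GENCODE vM1 on mm9. Promoters are from RefSeq on GRCm38.p6, where 66 of 84 members matched. As alternatives, the pseudocount was set to 0.1 or 1, the filter was dropped or raised to 1 FPKM, and the fits used median-ratio, sum and quantile scaling, limma without trend and robust, an adjusted p of 0.1, a replicate block, the number series of sample names as a block, 5 of the 6 mice, and centring by transcript length in 20 bins, which was added after the data were seen. Python 3.11.15 with pandas 2.3.3 made the tables, and matplotlib 3.10.9 the plots.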

Additional observations from a re-analysis of the deposited data

How the results depend on the processing

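Depth is unknown and 3 mice face 3, so an uncalled subunit is not shown to be level. The replicate block gave 0 called genes (972 at an unadjusted p below 0.05) and 0 called subunits, with log2 fold changes of -3.20 for Cox6a2 and -3.08 for Cox7a1 and a smallest subunit adjusted p of 0.145 from limma. Same-numbered mice correlated at 0.12, -0.23 and -0.43 in their deviations from the group means, and differently numbered mice at -0.37 to 0.46. Deviations of 3 mice from their own mean are tied to each other, so this cannot decide whether the numbers pair the mice. The block on the number series also gave 0 genes (1523 at an unadjusted p below 0.05) and 0 subunits, with -3.09 for Cox6a2 and -3.05 for Cox7a1 (limma adjusted p = 0.0661 for both). With 1 mouse left out, 0 to 254 genes and 0 to 2 subunits were called, and 135 genes (10 of them higher) and 1 subunit without JunBΔep 0. The other alternatives that keep 6 mice at the 0.05 threshold gave 166 to 247 genes and 2 subunits. At an adjusted p of 0.1, 327 genes and 3 subunits were called. In at least 1 alternative, 15 of the 82 tested subunits changed sign, all uncalled and between -0.26 and 0.10 in the fit reported, with 11 of them doing so without control 1. Of these, 10 are among the 26 subunits named by rule, and the other 5 are Atp5j2, Atp5l, Cox7a2l, Uqcr10 and Uqcr11. For the named subunits, rescaling to a common sum gave 0.0024 for Cox6b1, quantile normalization gave 0.11 for Cox6b1, 0.015 for Atp5g2 and 0.053 for Uqcrh, and the number series block gave 0.10 for Cox6b1, 0.044 for Uqcrh and 0.011 for Ndufa4l2. Leaving out 1 mouse gave ranges across 0 for Atp5g2 (-0.18 to 0.041), Cox4i1 (-0.41 to 0.043), Cox4i2 (-0.57 to 0.41), Cox6b1 (-0.14 to 0.21), Cox6b2 (-0.77 to 0.48), Ndufa4 (-0.32 to 0.45), Ndufa4l2 (-0.59 to 0.051), Ndufa7 (-0.27 to 0.14), Sdhd (-0.38 to 0.014) and Uqcrh (-0.18 to 0.20). The median of the tested subunits stayed between -0.50 and -0.23, and the medians of complexes I to V stayed below 0 in the alternatives run. The cause of these shifts was not tested. No edgeR fit was made, since the FPKM table does not give whole reads.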
